A study of Mus musculus with 10 samples.

Results

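The SRF and MRTF actin cytoskeleton genes were described in the RNA of NIH3T3 cells, a line of fibroblasts from mouse embryos. The set lists 45 genes by function: the transcription factor Srf, its coactivators, actins, and genes for contractile, actin-binding and focal adhesion proteins. Of these, 39 have a row of their own among the 14849 rows of the table that name a gene, found by symbol and by the row with the highest mean where there were several. All 39 reached 1 RPKM (a read count divided by transcript length and library size) in at least 2 libraries and were tested together with all 12842 such rows. Another 5 listed genes (Actb, Cnn2, Myl6, Tpm2 and Tpm3) have values only in rows that join them with another gene, and Fhl1 was not analysed here. The members were sorted by role into 5 regulators, 10 smooth-muscle-type genes, 13 adhesion and stress fibre genes and 11 housekeeping cytoskeletal genes. The Diap1 and Diap3 rows carry a second name of the same gene, and the Tgfb1i1 row joins a pair of gene identifiers with the same symbol.

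The libraries came from 4 clones that stably overexpress FOXP2, a forkhead transcription factor, from 4 clones that stably overexpress FOXP2-CPED1, which the series title calls a FOXP2 arrangement, and from 2 controls. The controls were 1 culture of parental cells and 1 of cells that stably carry the vector, and the labels name no treatment. The labels number the clones of a construct from 1 to 4, and each clone or control gave 1 library. The spread within a construct is therefore the spread between clones, and the labels do not say whether the vector cells were a clone. Both constructs were set against the same controls, so the comparisons with control share those libraries.

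SRF binds the CArG box, a short AT-rich element in the promoters of many cytoskeletal and growth-response genes. The MRTF coactivators, encoded by Mkl1 and Mkl2, bind monomeric actin in the cytoplasm; when actin assembles into filaments, they are released, enter the nucleus and act with SRF. In fibroblasts the pathway is known for stress fibres, focal adhesions and, in myofibroblasts, for genes otherwise typical of smooth muscle.

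Libraries were close in depth, which lay between 0.913 and 1.32 of the parental library as read from the steps among low values, and Spearman correlations between libraries ran from 0.925 to 0.982. The mitochondrially encoded rows stood at 0 in FOXP2 clones 2 and 4 and in FOXP2-CPED1 clone 3, and at 33213 to 41130 RPKM elsewhere. The mouse Foxp2 row held 0.145 to 1.02 RPKM in FOXP2 clones, 0.0674 to 0.330 RPKM in FOXP2-CPED1 clones and 0.0785 and 0.0798 RPKM in the controls. The mouse Cped1 row held 6.43 to 31.0 RPKM in FOXP2 clones, 6.69 to 25.4 RPKM in FOXP2-CPED1 clones, and 24.2 and 27.0 RPKM in the controls, with no excess in FOXP2-CPED1 clones. Nothing used here gives the species of the constructs, which makes these rows a limited check of the labels. The 7 fibroblast markers with a row summed to 4987 to 5865 RPKM in FOXP2 clones, 5324 to 6698 RPKM in FOXP2-CPED1 clones and 6848 to 7136 RPKM in the controls. Of the markers of differentiated smooth muscle, Smtn and Des together summed to 15.7 to 32.4 RPKM in FOXP2 clones, 20.4 to 29.4 RPKM in FOXP2-CPED1 clones and 35.7 RPKM in each control, while Myh11 and Myocd were not analysed here. These marker sums were lower in every clone than in either control, as were many members, and their part in the results was not tested. The fibroblast markers did not move together. Vim, the filament protein vimentin, was below both controls in all 8 clones, at 1295 to 2420 RPKM in FOXP2 clones, 1737 to 2156 RPKM in FOXP2-CPED1 clones, and 3140 and 2794 RPKM in the controls. Col1a1, a collagen I chain, was above both controls in 6 of 8 clones, at 889 to 1136 RPKM in FOXP2 clones, 1086 to 1239 RPKM in FOXP2-CPED1 clones, and 960 and 992 RPKM in the controls. Col1a2 and Pdgfra were each above both controls in 5 of 8 clones. Like Vim, Thy1 was below both controls in all 8 clones, and Col3a1 was in 7 and Pdgfrb in 6 of them.

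Several members fell in the clones, and none rose. Against the controls, 7 of 39 members fell in FOXP2 clones (Srf, Lmod1, Myl9, Tgfb1i1, Fhl2, Lima1 and Palld), while 0.397% of all tested rows did, and no member rose, while 0.0389% of rows did. In FOXP2-CPED1 clones, 5 of 39 members fell (Srf, Lmod1, Tgfb1i1, Fhl2 and Palld), while 0.327% of all tested rows did, and 0.0234% of rows rose with no member among them. With all 8 clones set against the controls, 8 members fell, Filip1l joining the 7 seen in FOXP2 clones, while 0.498% of rows did and 0.0389% of rows rose. Lmod1 passed the filter through the controls alone and had to differ. Without it 6 of 38 members fell in FOXP2 clones, 4 in FOXP2-CPED1 clones and 7 over all 8 clones. A call was an adjusted p under 0.05 in limma, two-sided, with Benjamini-Hochberg adjustment over all tested rows of a comparison. With the parental or the vector library left out, the number of members called was 0 in each comparison with control, so each of these calls needed both controls; the lone control was then assumed to vary like the clones. Fewer members were also called without single clones: 4 in FOXP2 without FOXP2 clone 1 or clone 4, 3 in FOXP2-CPED1 without FOXP2-CPED1 clone 1, 2 or 3, and 5 over all clones without FOXP2-CPED1 clone 3.

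Many more members were low without passing the test. The 4 FOXP2 clones all lay below both controls for 21 of 39 members, as they did for 10.4% of all tested rows, and none lay wholly above, as 9.13% of rows did. In FOXP2-CPED1 clones the count was 19 of 39 below, against 13.3% of rows, with none above, against 12.2% of rows. All 8 clones lay below both controls for 19 members, against 6.38% of rows, and above both for none, against 5.44% of rows. Over all 8 clones 34 of 39 members had a negative log2 fold change, against 48.4% of rows, and 20 had an unadjusted p under 0.05, against 9.1% of rows. The median log2 fold change on the log2(RPKM + 1) scale was −0.48 over the 39 members in FOXP2 clones, against 0.02 over all tested rows, and −0.31 in FOXP2-CPED1 clones, against 0.00 over all rows. Lmod1, which had to differ, is among the low members in each of these counts and medians. In bulk RNA, fewer cells that express a gene and less RNA of it per cell cannot be told apart.

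**Figure D1:**
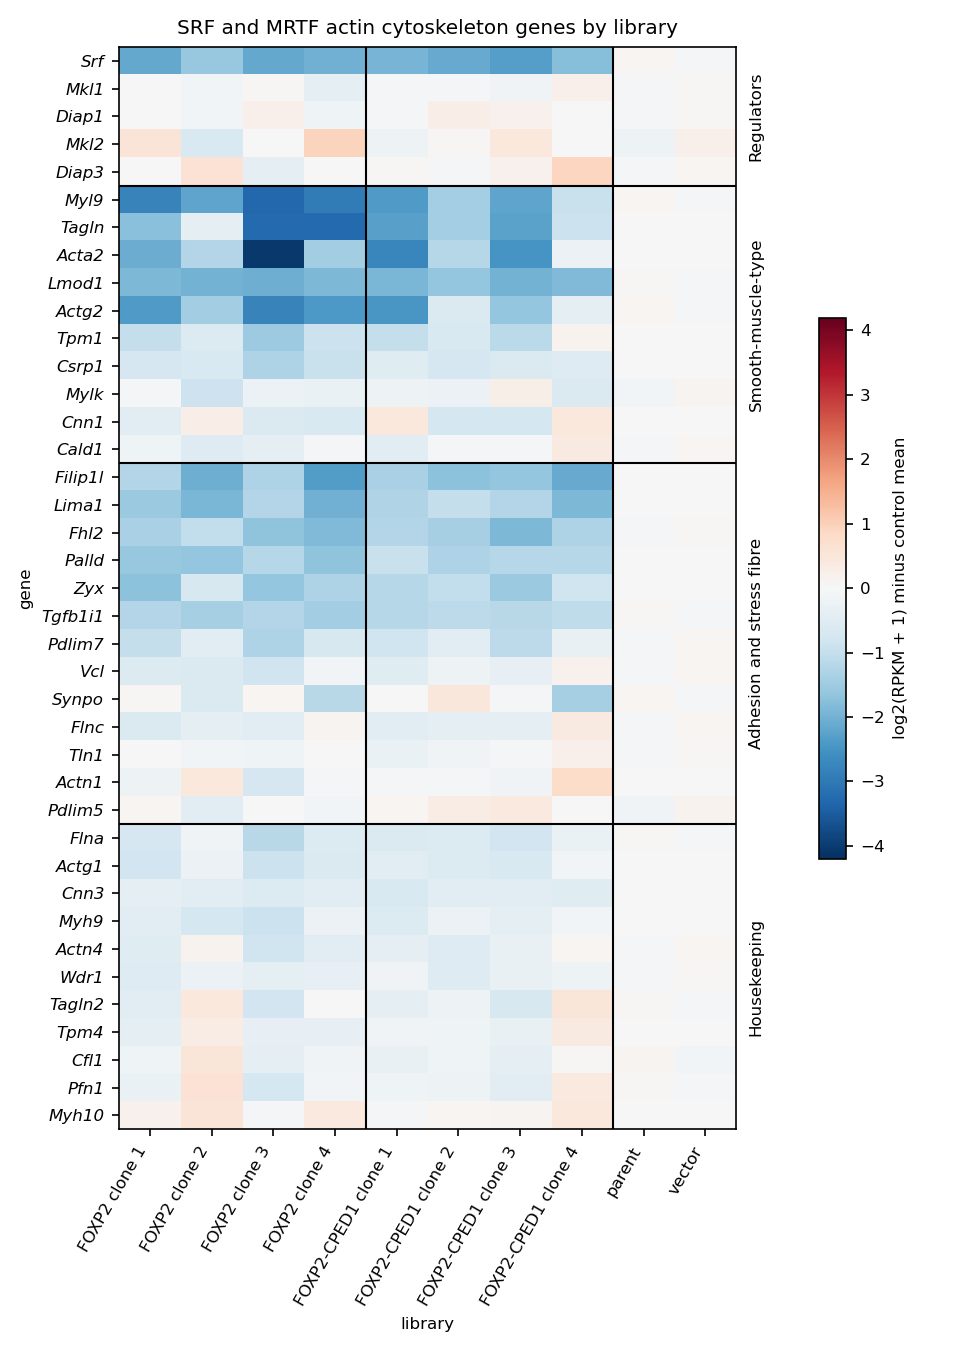
Difference of log2(RPKM + 1) from the mean of both controls for the 39 members (rows, by class) in each library (columns; FOXP2 clones, FOXP2-CPED1 clones, controls). Blue cells are lower and red cells higher than the controls. Srf is blue in all 8 clones beside pale Mkl1 and Diap1 cells, and Acta2 runs from −4.04 in FOXP2 clone 3 to −0.23 in FOXP2-CPED1 clone 4.

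Among the 5 regulators, Srf fell in both constructs, and the other regulators did not pass the test. Srf, which encodes the serum response factor, had 11.1, 17.2, 11.4 and 12.4 RPKM in FOXP2 clones 1 to 4, 13.0, 11.5, 10.1 and 14.8 RPKM in FOXP2-CPED1 clones 1 to 4, and 56.5 and 50.4 RPKM in the parental and vector cells. No clone came near a control, and the clones of both constructs covered about the same range. The mean was 13.0 ± 2.83 RPKM in FOXP2 clones (SD, n = 4), 12.3 ± 2.05 RPKM in FOXP2-CPED1 clones (SD, n = 4) and 53.4 ± 4.32 RPKM in the controls (SD, n = 2), so that it was 4.11-fold lower in FOXP2 clones and 4.33-fold lower in FOXP2-CPED1 clones. The log2 fold change was −1.98 ± 0.20 (SE) in FOXP2 clones with an adjusted p of 0.00289, and −2.04 ± 0.20 (SE) in FOXP2-CPED1 clones with an adjusted p of 0.00594. Without the parental or the vector library, the adjusted p of Srf in FOXP2 clones was 0.0796 and 0.0661, and its direction held under every alternative run.

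The promoter of Srf holds the motif that its product binds. Its window in RefSeq (GRCm38.p6, chr17:46556113-46556412, minus strand), which runs from 250 bases before to 50 bases after the gene's start, has 2 exact CArG boxes, at positions −82 and −62 from the start, shown in capitals because Srf is the regulator that fell.
Srf: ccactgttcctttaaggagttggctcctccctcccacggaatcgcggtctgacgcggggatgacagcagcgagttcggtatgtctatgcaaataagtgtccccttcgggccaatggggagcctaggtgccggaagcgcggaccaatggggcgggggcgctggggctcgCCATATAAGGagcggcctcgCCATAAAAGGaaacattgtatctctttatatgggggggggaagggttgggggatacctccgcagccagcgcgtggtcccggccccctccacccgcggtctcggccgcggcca

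The coactivators were read at about the same level in all arms. Mkl1, which encodes MRTF-A, had 21.8, 20.2, 22.7 and 16.2 RPKM in FOXP2 clones, 21.0, 20.3, 19.8 and 25.5 RPKM in FOXP2-CPED1 clones, and 21.0 and 22.7 RPKM in the controls. Its log2 fold change was −0.12 in FOXP2 clones with a 95% interval from −0.48 to 0.25, and −0.02 in FOXP2-CPED1 clones with an interval from −0.38 to 0.35. The Srf fold changes lie outside both intervals. Mkl2, which encodes MRTF-B, had 10.3, 3.98, 6.76 and 13.9 RPKM in FOXP2 clones, 5.77, 6.97, 9.55 and 6.85 RPKM in FOXP2-CPED1 clones, and 5.74 and 7.97 RPKM in the controls. FOXP2 clones thus stood on either side of the controls for Mkl2, with a log2 fold change of 0.21 and an interval from −0.63 to 1.05. The formins, which nucleate and lengthen actin filaments, also overlapped between arms. Diap1 averaged 23.2 ± 2.95 RPKM in FOXP2 clones, 25.4 ± 2.91 RPKM in FOXP2-CPED1 clones and 23.6 ± 1.35 RPKM in the controls, and Diap3 averaged 10.5 ± 3.45 RPKM in FOXP2 clones, 12.2 ± 4.57 RPKM in FOXP2-CPED1 clones and 9.66 ± 0.88 RPKM in the controls (SD, n = 4, 4 and 2).

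The smooth-muscle-type genes showed the lowest class median, with the widest scatter between clones. All 10 had a negative log2 fold change in FOXP2 clones, with a median of −1.48, where 47.6% of all tested rows were negative. All 10 were also negative in FOXP2-CPED1 clones, with a median of −0.97, where 49.7% of rows were. Only 2 of the 10 fell in FOXP2 clones (Myl9 and Lmod1), beside 0.397% of rows, and 1 in FOXP2-CPED1 clones (Lmod1), beside 0.327%. Yet 7 of them, Lmod1 included, lay below both controls in every FOXP2 clone, beside 10.4% of rows. In every FOXP2-CPED1 clone 6 did, Lmod1 again included, beside 13.3% of rows. Lmod1 is also in the class medians and in the counts of negative genes. Without Lmod1, which had to differ, the class had 1 call in FOXP2 clones and 0 in FOXP2-CPED1 clones. At an unadjusted p under 0.05 the class had 7 genes in FOXP2 clones and 5 in FOXP2-CPED1 clones, Lmod1 included. Of all tested rows, 8.52% in FOXP2 and 7.28% in FOXP2-CPED1 had such a p.

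Myl9, the regulatory light chain of non-sarcomeric myosin, had 3.04, 5.12, 1.92 and 2.73 RPKM in FOXP2 clones, 4.50, 9.52, 5.12 and 13.9 RPKM in FOXP2-CPED1 clones, and 29.4 and 25.8 RPKM in the controls. Every clone was below both controls, with the FOXP2 clones the lower and tighter group. The log2 fold change was −2.81 ± 0.40 in FOXP2 clones (adjusted p 0.0226) and −1.74 ± 0.40 in FOXP2-CPED1 clones (adjusted p 0.154). Lmod1, leiomodin 1, an actin filament nucleator of smooth muscle, had 0.158, 0.0877, 0.0239 and 0.153 RPKM in FOXP2 clones, 0.132, 0.390, 0.0925 and 0.191 RPKM in FOXP2-CPED1 clones, and 3.40 and 3.17 RPKM in the controls. It reached 1 RPKM in the controls alone, so it entered the tests through the group where it was high and had to differ. Its log2 fold change was −1.96 in FOXP2 clones (adjusted p 0.00262) and −1.84 in FOXP2-CPED1 clones (adjusted p 0.00594). The 1 RPKM added before the logarithm shrinks these: as a ratio of mean RPKM, Lmod1 was 31.1-fold lower in FOXP2 clones and 16.3-fold lower in FOXP2-CPED1 clones.

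Acta2, smooth muscle alpha-actin and the usual marker of myofibroblasts, had the widest scatter of the members on the log2(RPKM + 1) scale. It had 114, 204, 28.6 and 175 RPKM in FOXP2 clones, 71.9, 210, 87.3 and 414 RPKM in FOXP2-CPED1 clones, and 482 and 491 RPKM in the controls. Each clone was below both controls, but FOXP2-CPED1 clone 4 was close to them and FOXP2 clone 3 was far under them. Its log2 fold change was −2.21 ± 0.82 in FOXP2 clones (adjusted p 0.458) and −1.66 ± 0.82 in FOXP2-CPED1 clones (adjusted p 0.723), and neither passed. Tagln, the actin-bundling transgelin, had 19.8, 53.0, 6.34 and 6.28 RPKM in FOXP2 clones, 13.5, 25.1, 13.7 and 36.6 RPKM in FOXP2-CPED1 clones, and 70.3 and 68.5 RPKM in the controls. Actg2, smooth muscle gamma-actin, had 0.760, 2.38, 0.314 and 0.723 RPKM in FOXP2 clones, 0.693, 5.06, 1.98 and 5.96 RPKM in FOXP2-CPED1 clones, and 8.75 and 7.73 RPKM in the controls. Both genes repeated the picture of Acta2, with no overlap with the controls and no call; the smallest adjusted p among them was 0.159, for Actg2 in FOXP2 clones.

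The rest of the class differed less. Csrp1, a LIM-domain protein of actin bundles, had 43.1, 44.6, 27.7 and 36.5 RPKM in FOXP2 clones, 48.5, 42.3, 46.2 and 48.3 RPKM in FOXP2-CPED1 clones, and 71.2 and 69.2 RPKM in the controls. It was below both controls in all clones, with an adjusted p of 0.0972 in FOXP2 clones and 0.400 in FOXP2-CPED1 clones. Tpm1, an alpha-tropomyosin, averaged 188 ± 49.7 RPKM in FOXP2 clones, 247 ± 107 RPKM in FOXP2-CPED1 clones and 367 ± 9.65 RPKM in the controls, and FOXP2-CPED1 clone 4, at 402 RPKM, was above both controls. Cald1, caldesmon, a regulator of actin and myosin, averaged 290 ± 43.5 RPKM in FOXP2 clones, 342 ± 84.4 RPKM in FOXP2-CPED1 clones and 351 ± 31.4 RPKM in the controls. Calponin 1 (Cnn1) and the myosin light chain kinase gene Mylk overlapped with the controls in both constructs. The row that joins Tpm2 with Arhgef39 held 47.0 to 88.7 RPKM in FOXP2 clones, 58.5 to 105 RPKM in FOXP2-CPED1 clones, and 100 and 101 RPKM in the controls, and cannot be assigned to either gene.

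The promoter windows of Myl9 (chr2:156775214-156775513, plus strand) and Acta2 (chr19:34255324-34255623, minus strand) are shown for the class. Capitals mark an exact CArG box at −161 in Myl9, and in Acta2, which had no exact match, the matches with 1 base off the motif, at −84 and −34.
Myl9: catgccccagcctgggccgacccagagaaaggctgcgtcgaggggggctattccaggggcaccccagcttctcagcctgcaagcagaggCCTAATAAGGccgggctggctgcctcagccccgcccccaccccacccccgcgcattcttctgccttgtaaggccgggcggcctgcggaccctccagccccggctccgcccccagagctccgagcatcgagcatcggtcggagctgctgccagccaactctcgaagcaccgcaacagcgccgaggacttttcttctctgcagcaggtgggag
Acta2: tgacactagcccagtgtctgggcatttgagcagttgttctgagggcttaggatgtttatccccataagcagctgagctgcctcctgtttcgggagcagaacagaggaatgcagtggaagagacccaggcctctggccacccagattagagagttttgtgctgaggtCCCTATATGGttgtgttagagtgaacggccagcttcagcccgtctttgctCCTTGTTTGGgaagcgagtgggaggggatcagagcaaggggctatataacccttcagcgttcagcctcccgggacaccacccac

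**Figure D2:**
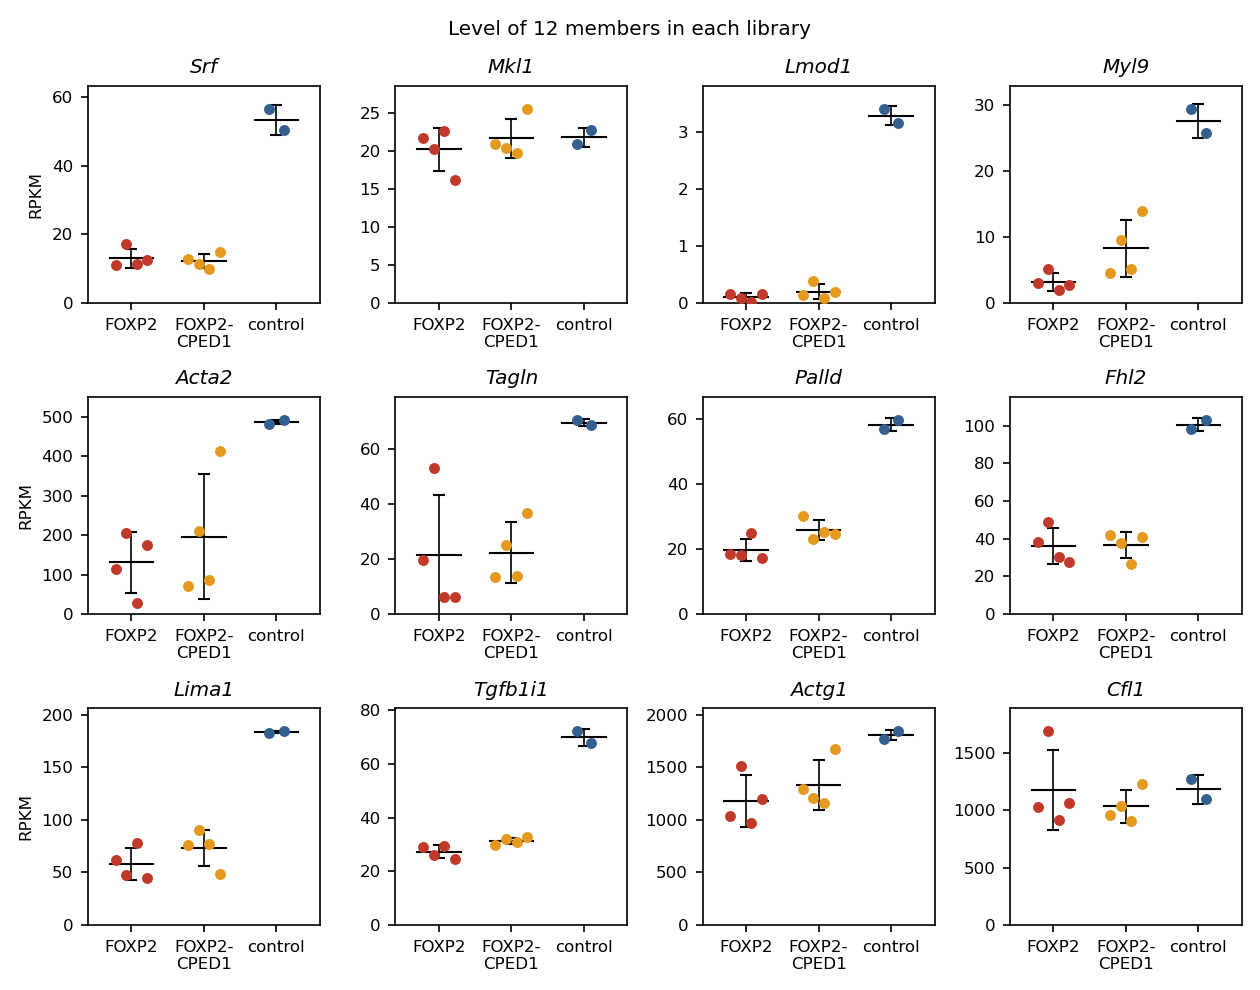
RPKM of 12 members in each library, with FOXP2 clones, FOXP2-CPED1 clones and controls side by side; points are libraries, wide bars are means and whiskers are SDs (n = 4, 4 and 2; the whisker of Tagln in FOXP2 clones is clipped at 0). Srf, Palld and Tgfb1i1 form tight low groups, Acta2 and Tagln are low but scattered, and Mkl1 and Cfl1 overlap with the controls.

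The adhesion and stress fibre genes held most of the members that fell. In FOXP2 clones 4 of 13 fell (Tgfb1i1, Fhl2, Lima1 and Palld), beside 0.397% of all tested rows, with a class median of −0.85. In FOXP2-CPED1 clones 3 fell (Tgfb1i1, Fhl2 and Palld), beside 0.327% of rows, with a median of −0.67. The FOXP2 clones lay below both controls for 8 of the 13 members, beside 10.4% of rows. The FOXP2-CPED1 clones did so for 7, beside 13.3% of rows.

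Tgfb1i1, which encodes the focal adhesion LIM protein Hic-5, had 29.2, 26.2, 29.3 and 24.7 RPKM in FOXP2 clones, 29.8, 31.9, 30.8 and 32.6 RPKM in FOXP2-CPED1 clones, and 72.1 and 67.6 RPKM in the controls. The clones of each construct were close to each other and far under both controls. The log2 fold change was −1.33 ± 0.12 in FOXP2 clones (adjusted p 0.00262) and −1.13 ± 0.12 in FOXP2-CPED1 clones (adjusted p 0.00594). A separate Tgfb1i1 row with a single identifier held at most 1.40 RPKM in any library. Palld, palladin, which cross-links actin in stress fibres, had 18.5, 18.3, 24.8 and 17.2 RPKM in FOXP2 clones, 30.3, 23.1, 25.1 and 24.7 RPKM in FOXP2-CPED1 clones, and 56.9 and 59.6 RPKM in the controls. It was low in all clones, with a log2 fold change of −1.53 ± 0.17 in FOXP2 clones (adjusted p 0.00526) and −1.15 ± 0.17 in FOXP2-CPED1 clones (adjusted p 0.0245).

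Fhl2, a LIM-only protein that binds SRF and other transcription factors, had 38.3, 48.7, 30.2 and 27.4 RPKM in FOXP2 clones, 42.0, 37.6, 26.7 and 40.7 RPKM in FOXP2-CPED1 clones, and 98.2 and 103 RPKM in the controls. Its log2 fold change was −1.48 ± 0.24 in FOXP2 clones (adjusted p 0.0342) and −1.45 ± 0.24 in FOXP2-CPED1 clones (adjusted p 0.0439), which passed by a narrow margin. Lima1, also called EPLIN, which stabilises actin filaments, had 62.1, 47.7, 77.6 and 44.3 RPKM in FOXP2 clones, 76.5, 90.2, 77.5 and 49.0 RPKM in FOXP2-CPED1 clones, and 183 and 184 RPKM in the controls. It fell in FOXP2 clones (log2 fold change −1.68 ± 0.27, adjusted p 0.0321) and missed the threshold in FOXP2-CPED1 clones (−1.35 ± 0.27, adjusted p 0.0885). Lima1 was among the less stable calls, with adjusted p values of 0.0761 without FOXP2 clone 1 and 0.211 without the libraries whose mitochondrially encoded rows stood at 0.

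Filip1l, a filamin A interacting protein, had 29.3, 16.0, 28.0 and 13.0 RPKM in FOXP2 clones, 26.3, 20.5, 21.7 and 15.4 RPKM in FOXP2-CPED1 clones, and 71.2 and 68.2 RPKM in the controls. It missed the threshold in FOXP2 clones (adjusted p 0.0664) and in FOXP2-CPED1 clones (adjusted p 0.0706) and passed over all 8 clones, with a log2 fold change of −1.72 ± 0.29 and an adjusted p of 0.0339. Zyx, the focal adhesion protein zyxin, had 71.0, 146, 75.2 and 94.4 RPKM in FOXP2 clones, 101, 113, 78.4 and 130 RPKM in FOXP2-CPED1 clones, and 234 and 235 RPKM in the controls. No clone overlapped with a control for Zyx, yet its adjusted p was 0.109 in FOXP2 clones and 0.198 in FOXP2-CPED1 clones. Some other focal adhesion members were near the controls. Tln1, the integrin activator talin 1, averaged 35.6 ± 2.40 RPKM in FOXP2 clones, 35.9 ± 5.49 RPKM in FOXP2-CPED1 clones and 37.4 ± 1.29 RPKM in the controls. Actn1, the cross-linker alpha-actinin 1, averaged 101 ± 34.0 RPKM in FOXP2 clones, 121 ± 41.1 RPKM in FOXP2-CPED1 clones and 107 ± 1.22 RPKM in the controls, with FOXP2-CPED1 clone 4 the highest at 183 RPKM.

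Windows of Fhl2 (chr1:43163912-43164211, minus strand), Lima1 (chr15:99820100-99820399, minus strand) and Filip1l (chr16:57548992-57549291, plus strand) are shown as windows with an exact CArG box. These members fell in at least 1 comparison. The window of Vcl, which encodes the adhesion adaptor vinculin (chr14:20929148-20929447, plus strand), is shown because Vcl has the same motif and was not called. Vcl had 46.0, 44.2, 38.2 and 63.5 RPKM in FOXP2 clones, all below the controls at 64.5 and 72.5 RPKM. In FOXP2-CPED1 clones it had 47.9, 58.2, 53.0 and 77.4 RPKM, with clone 4 above both controls. Its adjusted p in limma was 0.556 in FOXP2 clones and 0.888 in FOXP2-CPED1 clones. Capitals mark exact CArG boxes, at −31, −47, −62 and −227 in the order of the lines. A second Fhl2 window holds another at −96. The windows of Palld, which also fell, and another window of Filip1l hold no exact box and are not shown.
Fhl2: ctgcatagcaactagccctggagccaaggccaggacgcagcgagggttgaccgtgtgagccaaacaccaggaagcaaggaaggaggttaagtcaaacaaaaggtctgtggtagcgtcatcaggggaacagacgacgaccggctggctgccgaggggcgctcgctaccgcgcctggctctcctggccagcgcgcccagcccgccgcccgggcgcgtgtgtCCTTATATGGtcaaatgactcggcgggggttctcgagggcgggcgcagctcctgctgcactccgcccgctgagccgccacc
Lima1: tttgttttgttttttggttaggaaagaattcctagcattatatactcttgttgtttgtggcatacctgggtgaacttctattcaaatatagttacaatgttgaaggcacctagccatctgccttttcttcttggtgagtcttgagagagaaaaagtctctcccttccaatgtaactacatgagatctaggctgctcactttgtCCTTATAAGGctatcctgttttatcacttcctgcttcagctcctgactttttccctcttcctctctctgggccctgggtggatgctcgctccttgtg
Filip1l: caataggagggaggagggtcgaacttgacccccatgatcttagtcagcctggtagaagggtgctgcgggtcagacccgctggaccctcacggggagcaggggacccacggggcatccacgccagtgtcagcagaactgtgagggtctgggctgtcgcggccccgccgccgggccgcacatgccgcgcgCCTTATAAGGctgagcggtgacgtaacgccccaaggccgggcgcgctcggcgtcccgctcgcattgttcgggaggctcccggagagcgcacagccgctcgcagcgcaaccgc
Vcl: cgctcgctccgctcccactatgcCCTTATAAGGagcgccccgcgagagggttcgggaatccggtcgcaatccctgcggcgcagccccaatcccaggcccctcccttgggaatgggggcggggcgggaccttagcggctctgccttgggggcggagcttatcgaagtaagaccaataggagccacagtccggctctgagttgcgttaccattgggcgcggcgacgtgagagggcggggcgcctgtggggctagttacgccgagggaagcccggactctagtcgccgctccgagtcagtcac

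In limma, none of the 11 housekeeping cytoskeletal genes was called in either construct. Their class median was −0.38 in FOXP2 clones and −0.29 in FOXP2-CPED1 clones. In each construct 10 of 11 were negative, beside 47.6% of all tested rows in FOXP2 and 49.7% in FOXP2-CPED1. In each, 5 lay below both controls in every clone, beside 10.4% of rows in FOXP2 and 13.3% in FOXP2-CPED1. The smallest adjusted p was 0.158 in FOXP2 clones and 0.136 in FOXP2-CPED1 clones, while 5 members had an unadjusted p under 0.05 in FOXP2 clones, beside 8.52% of all tested rows, and 2 did in FOXP2-CPED1 clones, beside 7.28% of rows. With library quality weights in limma, 7 of the 11 passed as lower in FOXP2 clones, Actg1, Flna, Cnn3 and Myh9 among them, and 3 did in FOXP2-CPED1 clones. These weights called 2095 of all tested rows in FOXP2 clones and 929 in FOXP2-CPED1 clones. Of smooth-muscle-type genes, 7 of 10 passed as lower with them in each construct. Of adhesion and stress fibre genes, 9 of 13 did in FOXP2 clones and 7 in FOXP2-CPED1 clones.

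Cnn3, the non-muscle calponin 3, had 167, 159, 147 and 158 RPKM in FOXP2 clones, 141, 157, 160 and 156 RPKM in FOXP2-CPED1 clones, and 220 and 220 RPKM in the controls. Cnn3 carried the smallest p of the class in both constructs, with a log2 fold change of −0.48 ± 0.11 in FOXP2 clones and −0.52 ± 0.11 in FOXP2-CPED1 clones. Actg1, cytoplasmic gamma-actin and the highest of the 39 members per length of transcript, had 1041, 1516, 967 and 1195 RPKM in FOXP2 clones, 1294, 1204, 1155 and 1676 RPKM in FOXP2-CPED1 clones, and 1770 and 1842 RPKM in the controls. All clones were below both controls for Actg1, FOXP2-CPED1 clone 4 only slightly, and its log2 fold change was −0.64 in FOXP2 clones (adjusted p 0.363) and −0.45 in FOXP2-CPED1 clones (adjusted p 0.684).

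Flna, the actin cross-linker filamin A, averaged 187 ± 53.3 RPKM in FOXP2 clones, 194 ± 30.2 RPKM in FOXP2-CPED1 clones and 286 ± 16.8 RPKM in the controls (SD, n = 4, 4 and 2). Myh9, the heavy chain of non-muscle myosin IIA, averaged 232 ± 48.1 RPKM in FOXP2 clones, 273 ± 39.7 RPKM in FOXP2-CPED1 clones and 342 ± 8.85 RPKM in the controls. Both were lower in each clone than in either control and did not pass. Cfl1, which encodes the filament-severing cofilin 1, averaged 1173 ± 348 RPKM in FOXP2 clones, 1032 ± 144 RPKM in FOXP2-CPED1 clones and 1183 ± 127 RPKM in the controls. Pfn1, the actin monomer-binding profilin 1, averaged 1063 ± 431 RPKM in FOXP2 clones, 1049 ± 279 RPKM in FOXP2-CPED1 clones and 1099 ± 51.1 RPKM in the controls. Cfl1 and Pfn1 overlapped with the controls in both constructs. Reads of actins, cofilin, profilin and tropomyosins can be shared with pseudogenes and paralogs, so these levels are uncertain.

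Cytoplasmic beta-actin could be read only through a row that joins Actb with Fbxl18. That row held 1131, 2091, 970 and 1348 RPKM in FOXP2 clones, 1649, 1517, 1289 and 2596 RPKM in FOXP2-CPED1 clones, and 2392 and 2589 RPKM in the controls. FOXP2-CPED1 clone 4 overlapped with the controls, and the adjusted p was 0.417 in FOXP2 clones and 0.789 in FOXP2-CPED1 clones. The row that joins Cnn2 with Abca7 was lower in all clones than in either control and did not pass (adjusted p 0.263 in FOXP2 clones and 0.442 in FOXP2-CPED1 clones), and the row that joins Myl6 with Myl6b overlapped with the controls. The row that joins Tpm3 with Nup210l held 212 to 332 RPKM in FOXP2 clones, 195 to 255 RPKM in FOXP2-CPED1 clones, and 206 and 176 RPKM in the controls. All 4 FOXP2 clones were above both controls there without passing the test (adjusted p 0.689), and the FOXP2-CPED1 clones overlapped with them (adjusted p 0.915).

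The promoter window of Actg1 (chr11:120348446-120348745, minus strand) is shown as that of a housekeeping member with the motif. Capitals mark an exact CArG box at −90.
Actg1: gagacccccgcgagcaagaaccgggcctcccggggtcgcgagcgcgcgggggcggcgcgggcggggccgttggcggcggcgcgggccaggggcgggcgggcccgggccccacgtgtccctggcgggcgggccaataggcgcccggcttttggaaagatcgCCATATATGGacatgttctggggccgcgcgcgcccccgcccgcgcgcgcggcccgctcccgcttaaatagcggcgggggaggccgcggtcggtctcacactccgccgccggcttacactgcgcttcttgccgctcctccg

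**Figure D3:**
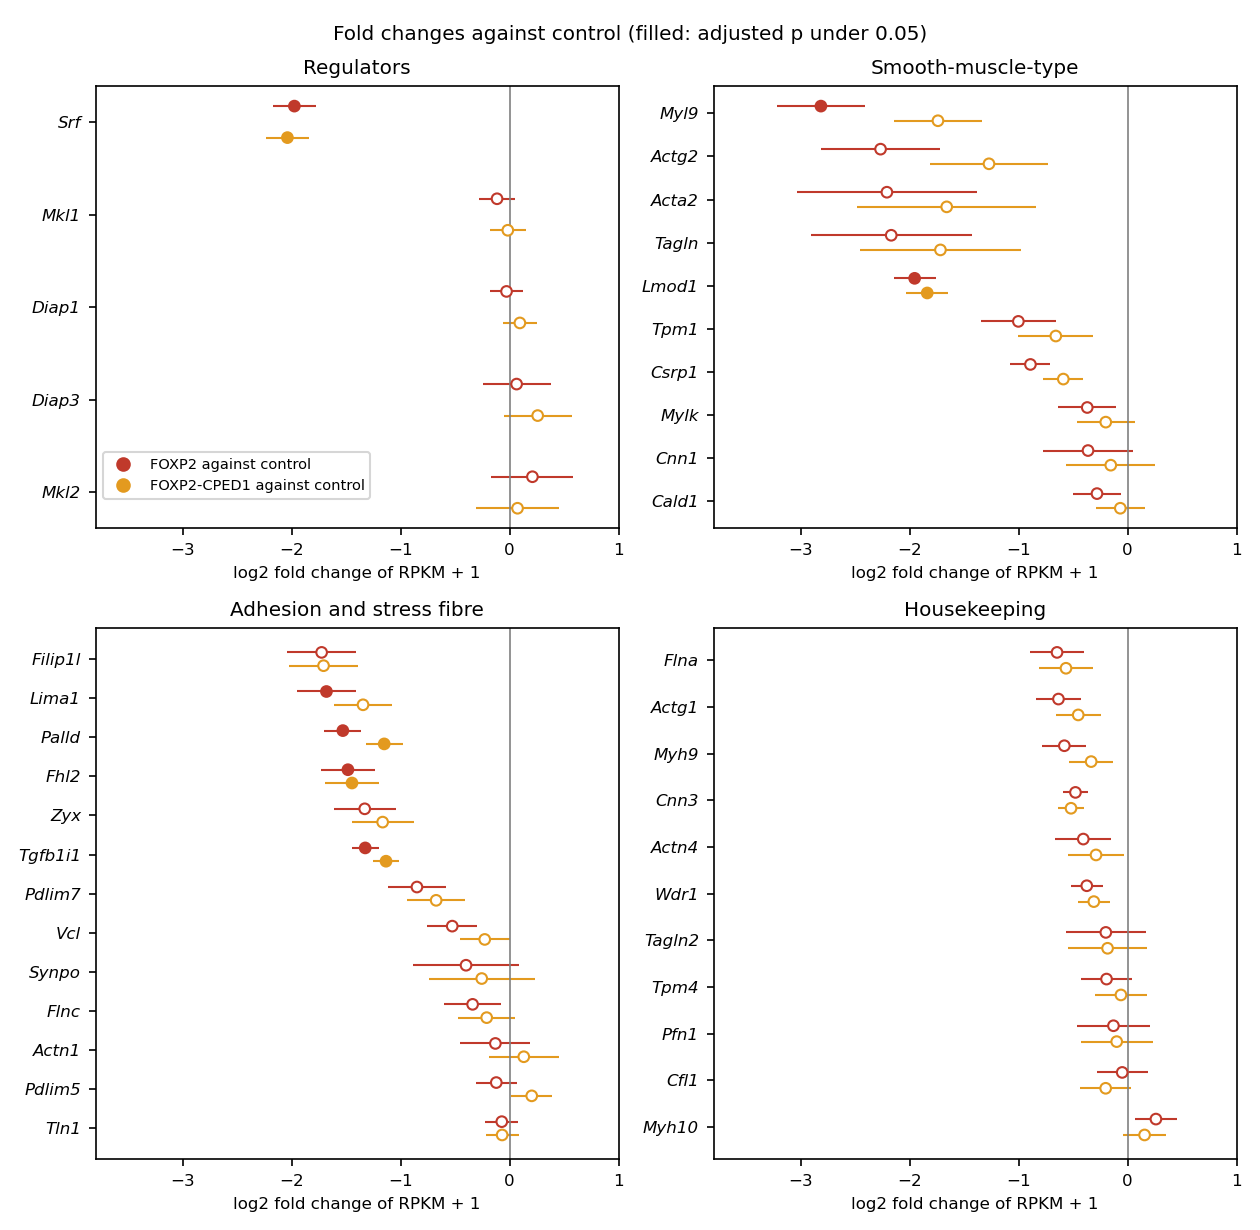
Log2 fold change against control on the log2(RPKM + 1) scale for the 39 members, by class, with FOXP2 above FOXP2-CPED1 for each gene; whiskers are standard errors and filled points have an adjusted p under 0.05. Filled points are seen in the regulator, smooth-muscle-type and adhesion panels, and the housekeeping points lie between −0.65 and 0.26.

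Over the whole set, exact CArG boxes were sought on both strands of the RefSeq windows. The motif was present in 535 of 32851 windows of all genes (1.63%) and, by gene, in 488 of 27025 genes (1.81%). Windows were matched for 39 of the 45 listed genes, and 10 of these genes (25.6%) had at least 1 exact box. The list was assembled around SRF, so this share describes how it was chosen. Among called members with a window, 5 of 7 had the motif (Srf, Myl9, Fhl2, Lima1 and Filip1l), while Lmod1 and Palld did not. Among members with a row that were not called, 2 of 27 had it (Actg1 and Vcl). Cnn2, Myl6 and Fhl1, which have no row of their own, also had it. No window was matched for the called Tgfb1i1 or for Actg2, Tagln, Synpo, Diap1 and Actb, so these counts leave them out. Whether the motif goes with the calls was not tested. A match with exactly 1 base off the motif was found in 15 of 53 member windows (28.3%) and in 19.9% of all windows, whether or not the window also had an exact box. A match describes letters in the window and says nothing of binding.

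The members differed greatly in how far the clones of a construct agreed. The SD between clones on the log2(RPKM + 1) scale, pooled over both constructs, was 1.22 for Acta2, 1.09 for Tagln, 0.79 for Actg2 and 0.57 for Myl9, against 0.25 for Srf, 0.20 for Palld, 0.09 for Tgfb1i1 and 0.08 for Cnn3. Acta2 and Tagln thus scattered more than 98.7% and 98.3% of all tested rows. The class medians of this SD were 0.53 for smooth-muscle-type, 0.35 for adhesion, 0.31 for housekeeping and 0.25 for regulator genes, and 0.28 for all tested rows. Between its clones, Acta2 spanned 7.14-fold in FOXP2 and 5.76-fold in FOXP2-CPED1, while Srf spanned 1.54-fold and 1.47-fold. Actg2 spanned 7.59-fold in FOXP2 and 8.60-fold in FOXP2-CPED1, and Tagln 8.43-fold and 2.70-fold. Lmod1 had an SD of 0.12, which the added 1 RPKM holds down, since its clones spanned 6.61-fold in FOXP2 and 4.22-fold in FOXP2-CPED1. In FOXP2 clones, Actg2 had a log2 fold change of −2.27 and was not called, and Srf, at −1.98 with less spread, was.

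In the smooth-muscle-type and housekeeping classes the scatter followed the same clones. FOXP2 clone 2 was the highest FOXP2 clone for 7 of 10 smooth-muscle-type and 9 of 11 housekeeping genes, and for 36.8% of all tested rows. FOXP2-CPED1 clone 4 was the highest of its construct for 7 and 9 genes of these classes, and for 35.6% of rows. FOXP2 clone 3 was the lowest for 6 and 9 of them, and for 31.4% of rows. The adhesion genes shared this order less in FOXP2, where clones 2 and 3 were each the highest for 4 of 13 and clone 4 was the lowest for 6, while FOXP2-CPED1 clone 4 was the highest of its construct for 7. As class medians of the difference from the control mean, smooth-muscle-type genes stood at −1.38, −0.76, −1.80 and −1.20 in FOXP2 clones 1 to 4 and −1.46, −0.73, −1.38 and −0.47 in FOXP2-CPED1 clones 1 to 4. Housekeeping genes stood at −0.43, 0.15, −0.75 and −0.33 in FOXP2 clones, and −0.37, −0.25, −0.41 and 0.06 in FOXP2-CPED1 clones. In all 8 clones the smooth-muscle-type median, with Lmod1 included, was lower than the housekeeping median. Srf was also highest in FOXP2 clone 2 and FOXP2-CPED1 clone 4, but over a narrower span than Acta2, at −2.17 to −1.58 in FOXP2 clones and −2.30 to −1.78 in FOXP2-CPED1 clones.

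**Figure D4:**
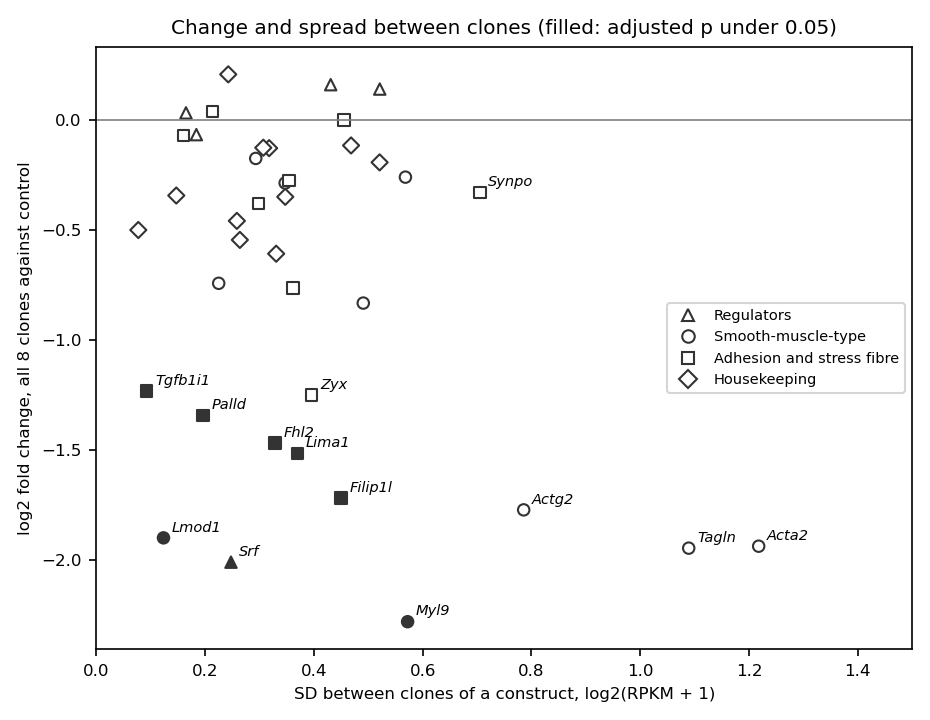
Log2 fold change of all 8 clones against the controls (vertical) by the SD between clones of a construct on the log2(RPKM + 1) scale (horizontal) for the 39 members; symbols are classes and filled symbols have an adjusted p under 0.05. Srf and Tgfb1i1 are low with little spread, and Tagln and Acta2 are as low with SDs over 1.

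Set directly against each other, the constructs gave no call among the members. In limma, 0 of 39 members passed for FOXP2-CPED1 against FOXP2, and 0% of all tested rows did; none passed with library quality weights either. Here 3 members (Actg2, Myl9 and Palld) had an unadjusted p under 0.05, as did 2.16% of rows. The difference was 1.07 for Myl9 (95% interval, not adjusted, 0.34 to 1.81), 0.99 for Actg2 (0.00 to 1.99) and 0.38 for Palld (0.07 to 0.69), all higher in FOXP2-CPED1 clones and all with an adjusted p of 1.00. For Srf it was −0.06, with an interval from −0.43 to 0.30, which leaves room for differences of that size in either direction. Of the 39 members, 34 were higher in FOXP2-CPED1 clones, all 10 smooth-muscle-type and all 13 adhesion genes among them, while 52.9% of all tested rows were lower in FOXP2-CPED1 clones. The class medians were 0.32 for smooth-muscle-type, 0.18 for adhesion, 0.06 for housekeeping and 0.10 for regulator genes, and −0.01 over all rows. With each library left out in turn, the smooth-muscle-type median ranged from 0.15 to 0.46. Tgfb1i1 was the single member with no overlap between the constructs, at 29.8 to 32.6 RPKM in FOXP2-CPED1 clones and 24.7 to 29.3 RPKM in FOXP2 clones, as 0.576% of rows were in this direction and 0.802% in the other; clones 1 of FOXP2-CPED1 and 3 of FOXP2 nearly touched.

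The parental and vector cells differed little in these genes, as in most tested rows. No member differed by 2-fold or more between them, and few tested rows did (296 of 12842). This closeness is therefore not particular to the members. The largest difference among the members was 0.41 on the log2 scale, for Mkl2. With 1 library each, the difference between these cells has no test.

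Genes of the pathway outside the set were read from 4 further lists. None of the 6 measured other SRF partners or of the 26 other actin filament genes was called in either construct in limma. At an unadjusted p under 0.05, these lists had 2 and 3 genes in FOXP2 clones and 1 and 4 in FOXP2-CPED1 clones, beside 8.52% of all tested rows in FOXP2 and 7.28% in FOXP2-CPED1. The list medians were 0.25 and −0.09 in FOXP2 clones and 0.04 and −0.11 in FOXP2-CPED1 clones. Of the 26 actin filament genes, 7 lay below both controls in every FOXP2 clone and 1 above, beside 10.4% and 9.13% of rows. In FOXP2-CPED1 clones 8 lay below and 0 above, beside 13.3% and 12.2% of rows. Negative log2 fold changes were held by 16 of them in FOXP2 clones and 22 in FOXP2-CPED1 clones, beside 47.6% and 49.7% of rows. The row that holds Elk1, an SRF partner of the ternary complex family, joins it with Cfp and Uxt and held 15.4 to 18.2 RPKM in FOXP2 clones, 15.6 to 20.2 RPKM in FOXP2-CPED1 clones, and 17.7 and 23.3 RPKM in the controls. Scai, a suppressor of MRTF and SRF activity, had 14.2, 4.71, 5.61 and 8.97 RPKM in FOXP2 clones, 3.77, 3.16, 4.72 and 5.31 RPKM in FOXP2-CPED1 clones, and 3.49 and 3.84 RPKM in the controls. All FOXP2 clones were above the controls for Scai, which did not pass (log2 fold change 0.90 ± 0.35, adjusted p 0.485).

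Of 19 other adhesion adaptors, 1 fell in FOXP2 clones, beside 0.397% of all tested rows, and in limma 0 fell in FOXP2-CPED1 clones, beside 0.327% of rows. At an unadjusted p under 0.05 the list had 5 genes in FOXP2 clones, beside 8.52% of rows, and 4 in FOXP2-CPED1 clones, beside 7.28% of rows. For 10 of the 19 every FOXP2 clone lay below both controls, beside 10.4% of rows. For 7 every FOXP2-CPED1 clone did, beside 13.3%, and none lay wholly above in either construct. In each construct 16 of the 19 were negative, with medians of −0.32 in FOXP2 clones and −0.33 in FOXP2-CPED1 clones. Nexn, the actin-binding nexilin, had 0.795, 1.86, 1.28 and 2.18 RPKM in FOXP2 clones, 1.66, 1.72, 1.64 and 3.16 RPKM in FOXP2-CPED1 clones, and 6.44 and 6.87 RPKM in the controls. Its adjusted p was 0.0346 in FOXP2 clones and 0.0873 in FOXP2-CPED1 clones. Of 8 immediate-early genes that SRF is known to drive mainly with ternary complex factors, 2 fell in FOXP2 clones (Egr2 and Egr3), beside 0.397% of rows. In FOXP2-CPED1 clones 4 fell (Fosb, Egr1, Egr2 and Egr3), beside 0.327% of rows. The list medians were −1.33 and −1.92. The FOXP2 clones lay below both controls for 7 of the 8 genes, beside 10.4% of rows, and the FOXP2-CPED1 clones for all 8, beside 13.3%. The exception was Fos, with 13.9, 7.43, 28.5 and 11.9 RPKM in FOXP2 clones, and 13.9 and 14.5 RPKM in the controls. Fos held 4.92 to 12.1 RPKM in FOXP2-CPED1 clones and was called in neither construct. Egr2, a zinc-finger transcription factor, had 7.83, 6.17, 10.5 and 2.93 RPKM in FOXP2 clones, 2.31, 4.21, 2.54 and 5.86 RPKM in FOXP2-CPED1 clones, and 45.3 and 49.6 RPKM in the controls. All clones were far below both controls for Egr2, with an adjusted p of 0.0250 in FOXP2 clones and 0.00828 in FOXP2-CPED1 clones. Egr3, of the same family, had 3.16, 9.93, 7.59 and 1.20 RPKM in FOXP2 clones, 4.31, 1.38, 2.40 and 4.00 RPKM in FOXP2-CPED1 clones, and 49.0 and 54.7 RPKM in the controls (adjusted p 0.0443 in FOXP2 clones and 0.0272 in FOXP2-CPED1 clones). Egr1, also of this family, had 67.6, 58.4, 75.8 and 28.8 RPKM in FOXP2 clones, 25.8, 40.1, 18.3 and 34.7 RPKM in FOXP2-CPED1 clones, and 174 and 180 RPKM in the controls. It was low in all clones and passed in FOXP2-CPED1 clones (adjusted p 0.0247), not in FOXP2 clones (adjusted p 0.130). Fosb, a subunit of the transcription factor AP-1, had 4.26, 6.47, 10.9 and 3.44 RPKM in FOXP2 clones, 3.57, 3.58, 1.55 and 4.57 RPKM in FOXP2-CPED1 clones, and 28.9 and 28.0 RPKM in the controls. Its adjusted p was 0.0197 in FOXP2-CPED1 clones and 0.0664 in FOXP2 clones. The 8 immediate-early genes were lower in FOXP2-CPED1 than in FOXP2 clones by a median of −0.60, opposite in sign to the smooth-muscle-type and adhesion members, and none of the 8 passed between the constructs (1 had an unadjusted p under 0.05).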

How the data were processed

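RNA of NIH3T3 cells was sequenced in 10 libraries: 4 FOXP2 clones, 4 FOXP2-CPED1 clones, and parental and vector cells as controls. Per the file headers, the table that the authors deposited holds RPKM values, 1 column for each library. HISAT2 and StringTie were used with the mm9 genome, per the submitters' processing notes; their versions, the annotation and the strand setting were not given in the sources used. Of 18430 rows, 3581 name no gene (3.37 to 4.54% of summed RPKM) and were left out, and 976 join several genes. Because RPKM values keep no read counts, count models and counting intervals were not used, and the absolute depth is not known.

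Values were taken as log2(RPKM + 1), with a pseudocount of 1. Rows that name a gene and reach 1 RPKM in at least 2 libraries (12842) were fitted in 3 arms with limma 3.58.1 (R 4.3.3; empirical Bayes, trend), with two-sided p-values, Benjamini-Hochberg adjustment within each of 4 comparisons, and a threshold of 0.05. Fold changes on this scale understate those of low genes. Levels carry the SD between libraries and fold changes the standard error of the fit; the p-values reflect how far these cultures varied. The fit was tested on simulated data. The members, classes, further lists and tests were chosen with earlier results of these data known. Members given in full were those called in any comparison, Srf, Mkl1 and Mkl2, and, per class, the 3 with the highest mean and the 3 with the smallest p in each comparison with control; from the further lists, called genes, Elk1 and Scai. A further list is not reported here. Members outside this rule that are named were chosen after their values were seen. RefSeq promoter windows (GRCm38.p6) were matched by symbol, with Mkl1 and Mkl2 as Mrtfa and Mrtfb, and no mm9 coordinate was used. The alternatives were a pseudocount of 0.1, no filter, quantile normalization, median ratio scaling, a fit without the third arm, quality weights per library, clone number as a block, and libraries left out; counting joined rows and using only rows with the bare symbol were added after seeing the data.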

Additional observations from a re-analysis of the deposited data

Results flagged for a closer look

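In each member and construct, the 4 clones were searched for a library far from the other 3. Of 78 such groups, 4 were flagged, and chance flags about 1 in 20. For Cnn1, FOXP2 clone 2 stood apart at 2.55 RPKM, with the other FOXP2 clones at 0.901 to 1.11 RPKM. For Tpm4, which encodes a non-muscle tropomyosin, FOXP2 clone 2 stood apart at 225.7 RPKM, with the others at 139 to 145 RPKM. For Actn1, FOXP2-CPED1 clone 4 stood apart at 183 RPKM, with the other FOXP2-CPED1 clones at 96.9 to 103 RPKM. For Flnc, which encodes filamin C, FOXP2-CPED1 clone 4 stood apart at 92.7 RPKM, with the others at 52.3 to 55.4 RPKM. In all of these the library was higher than the rest, and the clones are those that were highest of their construct for most housekeeping members. Tpm4 is itself among those members, and the number flagged was about what chance gives.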

How the results depend on the processing

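The number of members called was 7 for FOXP2, 5 for FOXP2-CPED1, 0 between the constructs and 8 for all clones, and all calls against the controls were falls under every setting run. With library quality weights, 24, 18 and 23 members were called in the comparisons with control, while 2095, 929 and 1842 of all rows were; with only the arms compared, 3 members were called in FOXP2. With a pseudocount of 0.1, 3 members were called in FOXP2-CPED1. Leaving out 1 library at a time gave 0 to 7 members in FOXP2, 0 to 6 in FOXP2-CPED1, 0 to 0 between the constructs and 0 to 8 over all clones, with 0 reached without either control. Without the 3 libraries with mitochondrial rows at 0, members called were 5, 5, 0 and 7, the median of adhesion members in FOXP2 was −1.14, and that of housekeeping members between the constructs was 0.39. Leaving out 1 library moved the regulator median of the members between −0.072 and 0.15 in FOXP2-CPED1 against control, and between −0.024 and 0.13 between the constructs. Counting joined rows as members gave 7, 5, 0 and 8 calls, and using only rows with the bare symbol gave 6, 4, 0 and 7. Deviations of same-numbered clones correlated at −0.04, −0.24, 0.28 and 0.17, within the range over all pairs of clones (−0.43 to 0.39). The labels do not say whether equal numbers pair the samples, and so few correlations cannot settle it. With clone number as a replicate block, 8, 4, 0 and 9 members were called. The cause of these shifts was not tested. Depth was close between libraries, and 2 controls limit every comparison with control.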

Other observations

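Markers of other cell types were low or overlapped between arms. Of skeletal and cardiac muscle, Tnnt2 and Ttn have rows and summed to 0.728 to 27.6 RPKM in FOXP2 clones, 2.33 to 7.27 RPKM in FOXP2-CPED1 clones and 5.37 and 7.79 RPKM in the controls. The highest value was Tnnt2, cardiac troponin T, in FOXP2 clone 2, at 27.5 RPKM. Of epithelial markers, Cdh1 and Krt14 summed to 0.779 to 5.19 RPKM in FOXP2 clones, 1.40 to 2.96 RPKM in FOXP2-CPED1 clones and 2.26 and 2.43 RPKM in the controls. Of endothelial markers, Cdh5 held at most 0.318 RPKM in FOXP2 clones, 0.536 RPKM in FOXP2-CPED1 clones and 0.121 RPKM in the controls, and blood markers with a row of their own were not analysed here.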
